A study of Mus musculus with 96 samples.

Results

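Untransduced C2C12 myotubes that received oligomycin together with piericidin were compared with myotubes that received piericidin alone, which asks what a block of ATP synthase adds to gene expression once complex I of the respiratory chain is already blocked. The members are the 3 samples of each of these 2 groups, chosen by their treatment labels, 6 of the 96 samples measured. C2C12 is an established mouse myoblast line whose cells fuse into contractile myotubes in low serum. The study measured RNA with sequencing in C2C12 cells at several stages of differentiation under inhibitors of mitochondrial function. All 6 samples were cells without a transgene that were kept in low serum for 4 days to differentiate and were then treated for 10 h in media lacking pyruvate and uridine. The piericidin samples received 0.5 µM piericidin, and the oligomycin+piericidin samples received 0.5 µM piericidin and 1 µM oligomycin. Myotubes given the DMSO vehicle (3 samples) and myotubes given 1 µM oligomycin alone (3 samples) served to set the same addition of oligomycin beside its effect without piericidin. All samples came from 1 cell line, and the labels do not say whether replicates were separate cultures, so p-values measure only the spread between samples. That spread was estimated over 27 samples of 9 untransduced myotube groups fitted together, which include groups under other treatments.

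Electrons enter the respiratory chain from NADH through complex I, and pumping of protons by the chain builds the membrane potential that ATP synthase uses to make ATP. Piericidin blocks complex I and stops this pumping at its start, whereas oligomycin blocks the proton channel of ATP synthase and leaves the potential without its main outlet. Many forms of stress, those of mitochondria included, converge on phosphorylation of eIF2 alpha and translation of the transcription factor ATF4, the integrated stress response (ISR). ATF4 and its partner DDIT3 (CHOP) induce genes of amino acid synthesis and transport, tRNA charging and feedback control.

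Total counts of the 6 samples ran from 6458295 to 11465832, and the lowest, piericidin replicate 1, was also the lowest of all 96. A gene annotated as ribosomal RNA, CT010467.1, took between 27.4% and 31.1% of the counts of these samples. Levels are given as CPM, counts scaled to a common library size after TMM scaling, which compares samples for a given gene but not genes with each other. The 12491 genes that reached 16 counts throughout any 1 of the 9 untransduced myotube groups were tested in edgeR (quasi-likelihood), and a gene is called when its adjusted p (Benjamini-Hochberg) is under 0.05. All 10 myotube markers were detected, at a summed 20700 to 21500 CPM with piericidin and 20500 to 21000 CPM with oligomycin+piericidin. Markers of proliferating myoblasts summed to 344 to 354 and 347 to 357 CPM and those of quiescent reserve cells to 288 to 302 and 287 to 295 CPM, while adipocyte markers stayed at or under 9.83 CPM (Cfd at 0) and osteoblast markers at or under 18.1 CPM. In such bulk samples, fewer cells of a type and less RNA per cell cannot be told apart.

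Adding oligomycin to piericidin called 149 of the 12491 genes (1.19%), 84 of them higher (0.672%) and 65 lower (0.52%). Most of these changes were small: 9 genes were called at least 2-fold higher (0.0721%) and 1 at least 2-fold lower (0.00801%). Above 2-fold were Atf3, Trib3, Chac1, Ddit3 and Sesn2, of the list of ISR factors and feedback genes, the mitokine Gdf15, and Cdsn, which is in no list. The 1 gene more than 2-fold lower was the predicted gene Gm4617, at 10.1, 8.99 and 8.47 CPM with piericidin and 2.01, 4.19 and 5.08 CPM with both inhibitors. The other 2 genes above 2-fold were the noncoding RNA 5430416N02Rik and Akr1b7, which were measured at low levels. All 3 samples of one group lay above all 3 of the other for every gene named below as higher or lower. At an unadjusted p under 0.05 there were 1351 genes (10.8%), and DESeq2 called 106 genes higher and 85 lower. The count was 89 without piericidin replicate 1 and 85 without oligomycin+piericidin replicate 2. The count of lower calls changed by more than 1.5 times in every case: leaving out piericidin replicate 1, 2 or 3 gave 36, 40 and 38 lower calls, and leaving out oligomycin+piericidin replicate 1, 2 or 3 gave 37, 28 and 40, beside 53 (without piericidin replicate 1) to 74 higher calls.

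**Figure D1:**
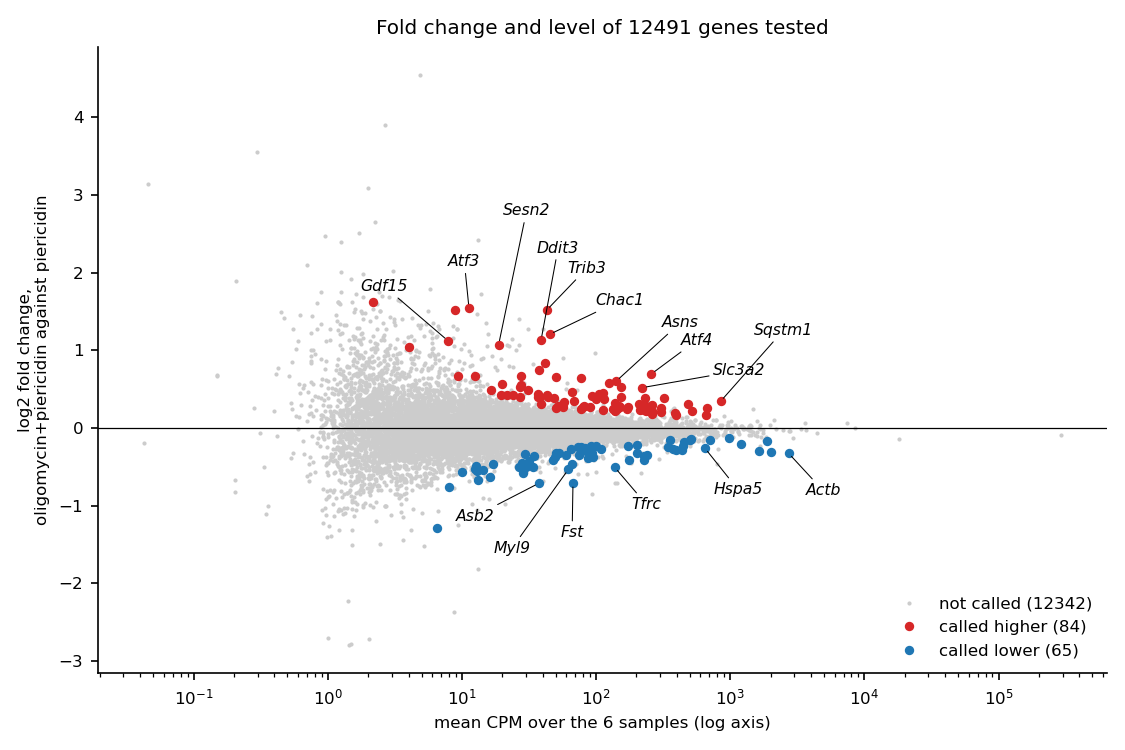
Mean level over the 6 samples (x axis, CPM, log axis) and log2 fold change of oligomycin+piericidin against piericidin (y axis) for the 12491 genes tested. Red points are the 84 genes called higher, blue points the 65 called lower and gray points the others. Of the called genes 9 lie above 1 on the log2 scale and 1, Gm4617, below -1.

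Atf4, Ddit3 and Atf3, 3 transcription factors of the ISR, were higher when oligomycin was added. Atf4 (chr15:80255184-80257541, plus strand, GRCm38), the ISR's central factor, was at 198, 191 and 202 CPM with piericidin and 330, 303 and 325 CPM with oligomycin+piericidin. The ranges were far apart, and the log2 fold change was 0.70 (SE 0.0461, adjusted p = 4.72e-10, edgeR). Ddit3 (chr10:127290774-127296288, plus strand), which encodes CHOP, the partner of ATF4 in prolonged stress, was at 23.5, 25.2 and 24.3 CPM with piericidin and 54.0, 48.4 and 58.0 CPM with both inhibitors. The lowest sample with both inhibitors was far above the highest with piericidin, and its log2 fold change was 1.13 (SE 0.0813, adjusted p = 2.06e-09, edgeR). Atf3 (chr1:191170296-191218039, minus strand), a stress-induced factor downstream of ATF4, was at 5.46, 5.01 and 6.61 CPM with piericidin and 14.1, 18.3 and 18.2 CPM with both. It had the largest rise of the genes that the naming rule took, 2.92-fold (log2 fold change 1.55, SE 0.165, adjusted p = 2.13e-06, edgeR).

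Several genes that act as feedback or brakes in the ISR were called higher as well. Trib3, a pseudokinase that binds and restrains ATF4 and AKT, was at 23.3, 23.0 and 20.4 CPM with piericidin and 65.1, 61.3 and 63.6 CPM with both inhibitors. It had the lowest adjusted p of all genes tested (2.86-fold, log2 fold change 1.52, SE 0.0866, adjusted p = 5.9e-11, edgeR). Chac1, which degrades glutathione, was at 29.7, 26.5 and 25.9 CPM with piericidin and 58.6, 66.8 and 63.5 CPM with both (2.31-fold, adjusted p = 9.3e-09, edgeR). Sesn2, a stress-induced inhibitor of mTORC1 signaling, was at 15.3, 10.5 and 10.9 CPM and then 27.6, 23.0 and 25.3 CPM (2.11-fold, adjusted p = 2.97e-06, edgeR). Neither gene had overlapping groups. Ppp1r15a, the GADD34 subunit that directs a phosphatase to eIF2 alpha, rose 1.68-fold, from a mean of 27.9 ± 2.92 to 46.7 ± 1.82 CPM (SD, n = 3 each, adjusted p = 7.45e-07, edgeR). Nupr1 rose 1.56-fold, Vldlr 1.59-fold and the translation repressor Eif4ebp1 1.21-fold. In all, 11 of the 19 tested members of the list of ISR transcription factors and feedback genes rose and 0 fell, beside 0.672% and 0.52% of all genes, and the median log2 fold change of the list was 0.56 beside -0.007 over all genes. DESeq2 also called 11 higher and 0 lower, with 13 members at an unadjusted p under 0.05, and each fit without 1 of the 6 samples gave 11. Members that did not pass included Atf5 (log2 fold change 0.28), Cebpg (0.56), Ddit4 (-0.04) and Jdp2 (-0.26).

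The mitokines, hormones that muscle secretes in mitochondrial disease, were both higher. Gdf15 was at 3.53, 4.70 and 6.35 CPM with piericidin and 10.2, 11.3 and 11.2 CPM with both inhibitors (2.18-fold, log2 fold change 1.12, SE 0.186, adjusted p = 0.000943, edgeR). Fgf21 was at 41.0, 40.8 and 34.8 CPM with piericidin and 59.2, 62.5 and 61.0 CPM with both (1.57-fold, log2 fold change 0.65, SE 0.0841, adjusted p = 3.3e-05, edgeR). Piericidin alone had already raised both over DMSO, where Gdf15 was at 1.88 ± 0.272 CPM and Fgf21 at 28.7 ± 2.25 CPM (SD, n = 3 each; log2 fold changes 1.4 and 0.43). None of the 7 tested members of the list of eIF2 alpha kinases and their relay was called in edgeR (0 at an unadjusted p under 0.05 and 0 by DESeq2), with log2 fold changes from -0.30 to -0.01.

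**Figure D2:**
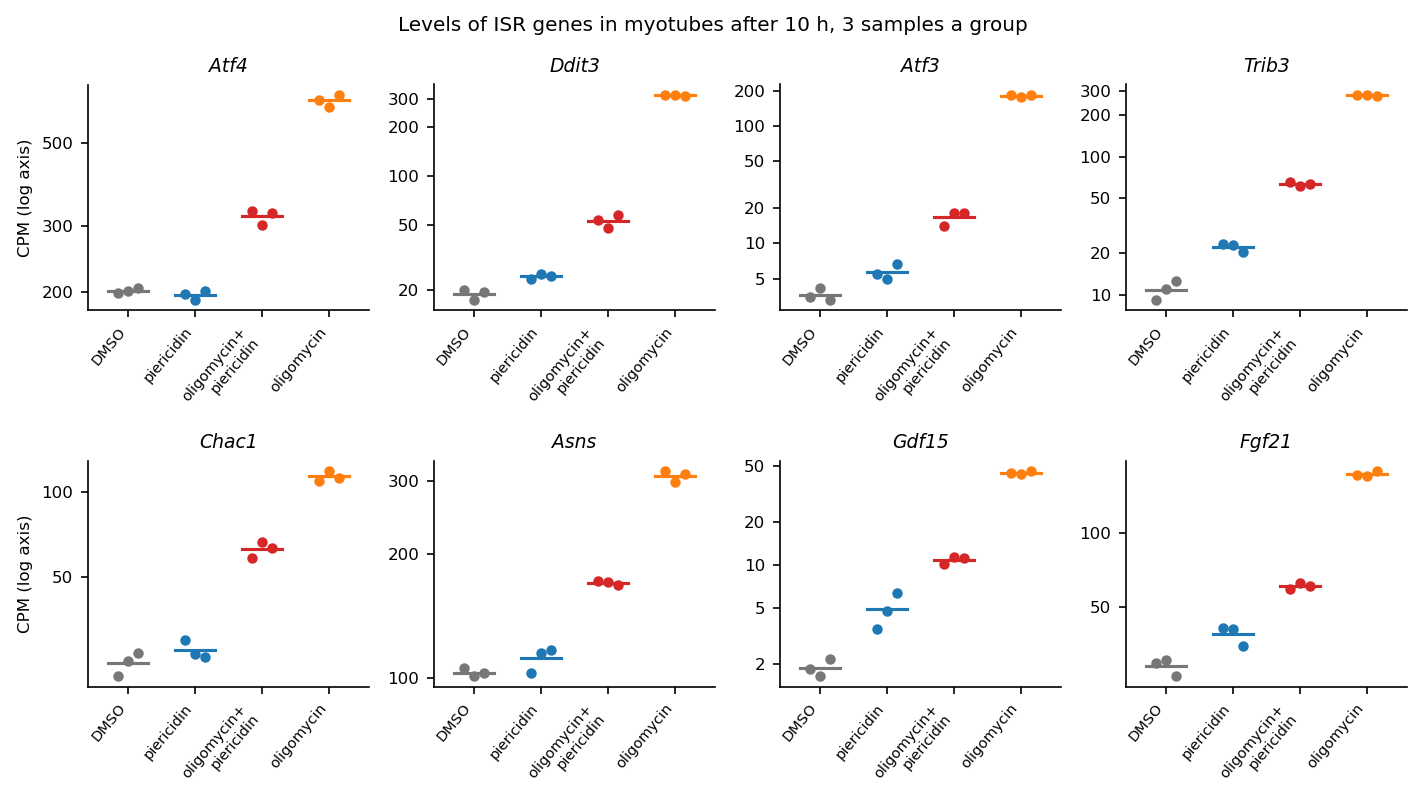
CPM (log axis) of 8 ISR genes in each of the 3 samples (points) of the DMSO, piericidin, oligomycin+piericidin and oligomycin groups, with lines at the group means. In each panel the 3 oligomycin+piericidin samples lie above the piericidin samples and below the oligomycin samples, as for Atf3 with means of 5.69, 16.9 and 181 CPM.

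The 250 bases before the start of transcription were searched on both strands for the core of the C/EBP-ATF response element (CARE), TGATGNAA, to which ATF4 dimers bind; RefSeq starts (GRCm38.p6) were found for 70 of the 84 higher genes and 48 of the 65 lower genes. The word was in 12 of the 70 higher genes (17.1%) and 1 of the 48 lower genes (2.08%), beside 223 of 9224 tested genes with a promoter (2.42%) and 3.91% of all 27025 genes with a promoter. The 12 genes were Aars, Asns, Atf3, Chac1, Ctsl, Fgf21, Gars, Herpud1, Nupr1, Pck2, Tars and Vldlr, and the lower gene was Gadd45g. The cAMP response element TGACGTCA, was in 2 of the 70 (2.86%; Plk2 and Ppp1r15a), 1 of the 48 (2.08%; Fscn1), 3.11% of tested genes and 1.77% of all, and none of these 3 genes held the CARE word. A match is a description of these letters and not a binding site. Shown are 5 of the 12, from base -250 to base -21 on the strand of the gene, with the match in capitals (the reverse complement of TGATGNAA in each), because they let the place of the match be compared between strongly and weakly raised genes: from base -110 in Atf3 (chr1:191183354-191183583, minus strand), -193 in Chac1 (chr2:119350992-119351221, plus), -139 in Fgf21 (chr7:45615511-45615740, minus), -112 in Herpud1 (chr8:94386179-94386408, plus) and -103 in Pck2 (chr14:55540016-55540245, plus).
Atf3: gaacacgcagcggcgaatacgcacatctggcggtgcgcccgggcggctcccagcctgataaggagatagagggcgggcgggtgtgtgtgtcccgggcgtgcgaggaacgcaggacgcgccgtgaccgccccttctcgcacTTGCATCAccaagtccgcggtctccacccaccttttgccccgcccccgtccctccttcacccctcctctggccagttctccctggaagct
Chac1: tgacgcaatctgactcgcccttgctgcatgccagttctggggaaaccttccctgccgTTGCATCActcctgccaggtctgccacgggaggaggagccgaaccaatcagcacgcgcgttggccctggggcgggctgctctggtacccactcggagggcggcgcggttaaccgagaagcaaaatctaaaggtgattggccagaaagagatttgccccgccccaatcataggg
Fgf21: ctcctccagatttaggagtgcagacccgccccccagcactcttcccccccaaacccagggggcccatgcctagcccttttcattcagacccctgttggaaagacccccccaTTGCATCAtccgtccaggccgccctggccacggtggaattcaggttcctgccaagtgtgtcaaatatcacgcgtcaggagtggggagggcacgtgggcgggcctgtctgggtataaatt
Herpud1: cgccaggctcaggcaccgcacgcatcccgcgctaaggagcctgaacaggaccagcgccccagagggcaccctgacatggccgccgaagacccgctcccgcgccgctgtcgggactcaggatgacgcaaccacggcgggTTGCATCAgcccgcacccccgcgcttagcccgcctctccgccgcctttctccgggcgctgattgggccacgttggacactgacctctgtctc
Pck2: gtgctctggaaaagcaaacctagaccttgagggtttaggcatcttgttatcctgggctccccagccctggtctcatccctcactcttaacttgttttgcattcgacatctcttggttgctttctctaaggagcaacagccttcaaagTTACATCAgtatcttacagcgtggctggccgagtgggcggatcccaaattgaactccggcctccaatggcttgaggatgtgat

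Of 17 tested enzymes that make serine, glycine, asparagine and proline or feed the folate cycle, 8 were called higher and 9 were not called. Asns, asparagine synthetase, was at 103, 115 and 117 CPM with piericidin and 172, 171 and 168 CPM with both inhibitors (1.52-fold, log2 fold change 0.60, SE 0.0564, adjusted p = 2.35e-07, edgeR). Mthfd2, the mitochondrial folate enzyme, was at 109, 90.3 and 103 CPM and then 144, 154 and 153 CPM (1.5-fold, adjusted p = 1.04e-05, edgeR), and Aldh1l2, another mitochondrial folate enzyme, rose 1.32-fold. For each of these the lowest sample with both inhibitors was above the highest with piericidin. Phgdh and Psat1, which open the serine pathway, rose by only 0.18 and 0.22 on the log2 scale, Shmt2 by 0.25, Aldh18a1 by 0.34 and Gpt2 by 0.24. None of the list was called lower, the median log2 fold change was 0.23, DESeq2 called 9 higher and 0 lower, and 12 had an unadjusted p under 0.05. The count was 5, 3 and 5 without piericidin replicate 1, 2 and 3, and 4 without oligomycin+piericidin replicate 3.

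Some amino acid transporters and most of the tested cytosolic tRNA synthetases were called higher. Slc3a2, the heavy chain of the transporters that carry large neutral amino acids and cystine, was at 178, 186 and 181 CPM with piericidin and 252, 273 and 258 CPM with both inhibitors (1.44-fold, adjusted p = 2.76e-07, edgeR). Slc6a9, a glycine transporter, rose 1.44-fold from 22.3 ± 2.62 to 32 ± 4.3 CPM (SD, n = 3 each), and Slc38a7 and Slc38a2, glutamine transporters of the lysosome and the plasma membrane, rose 1.34-fold and 1.23-fold. The cystine carrier Slc7a11 was at 3.37, 3.58 and 2.29 CPM and then 5.95, 6.33 and 4.05 CPM, which was not called (adjusted p = 0.264, edgeR). Of 13 transporters tested, 4 rose and 0 fell (median log2 fold change 0.30), with 9 at an unadjusted p under 0.05 and 5 higher by DESeq2; without piericidin replicate 2 or 3 the count was 2. Among 20 cytosolic tRNA synthetases 12 rose and 0 fell (median log2 fold change 0.25; DESeq2 12 and 0; 13 at an unadjusted p under 0.05), and the count was 8 to 11 when 1 of the 6 samples was left out. Aars, the alanine enzyme, was at 131, 130 and 137 CPM with piericidin and 174, 176 and 177 CPM with both (1.33-fold, adjusted p = 0.000116, edgeR), the largest rise of the 12. Iars, for isoleucine, rose 1.30-fold and Wars, for tryptophan, 1.29-fold, while Eprs, Gars, Nars, Tars, Yars, Mars, Sars, Lars and Cars rose by 0.24 to 0.34 on the log2 scale. Eif5, which opens the way to start codon recognition, and Xpot, the exporter of tRNA from the nucleus, lie outside these lists and were picked after their values were seen; they rose 1.24-fold and 1.33-fold.

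Further genes that belong to other pathways were called higher, beside 0.672% of all genes tested. Most were 1 or 2 members of their list, counts that are not read as a result about the list. Cdsn, corneodesmosin, an adhesion protein best known from skin, was at 3.86, 5.01 and 4.76 CPM with piericidin and 14.3, 12.8 and 12.8 CPM with both inhibitors (2.88-fold, log2 fold change 1.53, SE 0.166, adjusted p = 2.81e-06, edgeR). Acot2, a mitochondrial acyl-CoA thioesterase, was at 32.6, 29.9 and 27 CPM and then 53.2, 52.9 and 52.5 CPM (1.78-fold, adjusted p = 1.27e-07, edgeR). Both had groups well apart. Ptgs2, the inducible prostaglandin synthase, rose 1.59-fold at a low level of 7.22 ± 1.13 to 11.3 ± 1.35 CPM (SD, n = 3 each), and Ugt1a6a, of a family that shares exons so that reads may be divided between members, rose 1.60-fold. Sqstm1, the autophagy receptor p62, was at 735, 755 and 748 CPM with piericidin and 941, 955 and 946 CPM with both, a rise of only 1.27-fold that stood far above the spread (SE 0.0258 on the log2 scale, adjusted p = 4.23e-09, edgeR). With Ctsl, a lysosomal protease (1.12-fold), it made 2 of 16 autophagy and lysosome genes higher and 0 lower (1 higher without piericidin replicate 1 or oligomycin+piericidin replicate 2). Hspa9, the mitochondrial HSP70, rose 1.24-fold (adjusted p = 4.72e-05, edgeR) and was the 1 of 14 mitochondrial chaperones and proteases called. Hmox1, heme oxygenase, rose 1.35-fold and was the 1 of 12 NRF2 antioxidant genes called, and Mt1, a metallothionein, rose 1.44-fold, the 1 of 4 called and lost when any of the 6 samples but piericidin replicate 1 was left out. The p53 targets Eda2r and Plk2 rose 1.19-fold and 1.17-fold, 2 of 15, and the count was 0 without piericidin replicate 1 or 3 and 1 without oligomycin+piericidin replicate 2 or 3. Myog, the myogenic factor of differentiation, was at 618, 599 and 632 CPM with piericidin and 765, 723 and 717 CPM with both (1.19-fold, adjusted p = 0.000463, edgeR). With DMSO it was at a mean of 745 CPM, and piericidin alone lowered it (log2 fold change -0.27, adjusted p = 4.24e-05, edgeR). Myog was the 1 of 10 myogenic factors called. The other 9 had log2 fold changes below 0 (list median -0.15), 4 of the 10 had an unadjusted p under 0.05, and DESeq2 called 1 higher and 1 lower. Nsdhl, a sterol enzyme, rose 1.21-fold, the 1 of 27 sterol and fatty acid genes called and lost without piericidin replicate 1 or 2 or oligomycin+piericidin replicate 1. Its mean was 94.1 CPM with DMSO, 72.6 with piericidin and 87.8 with both.

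**Figure D3:**
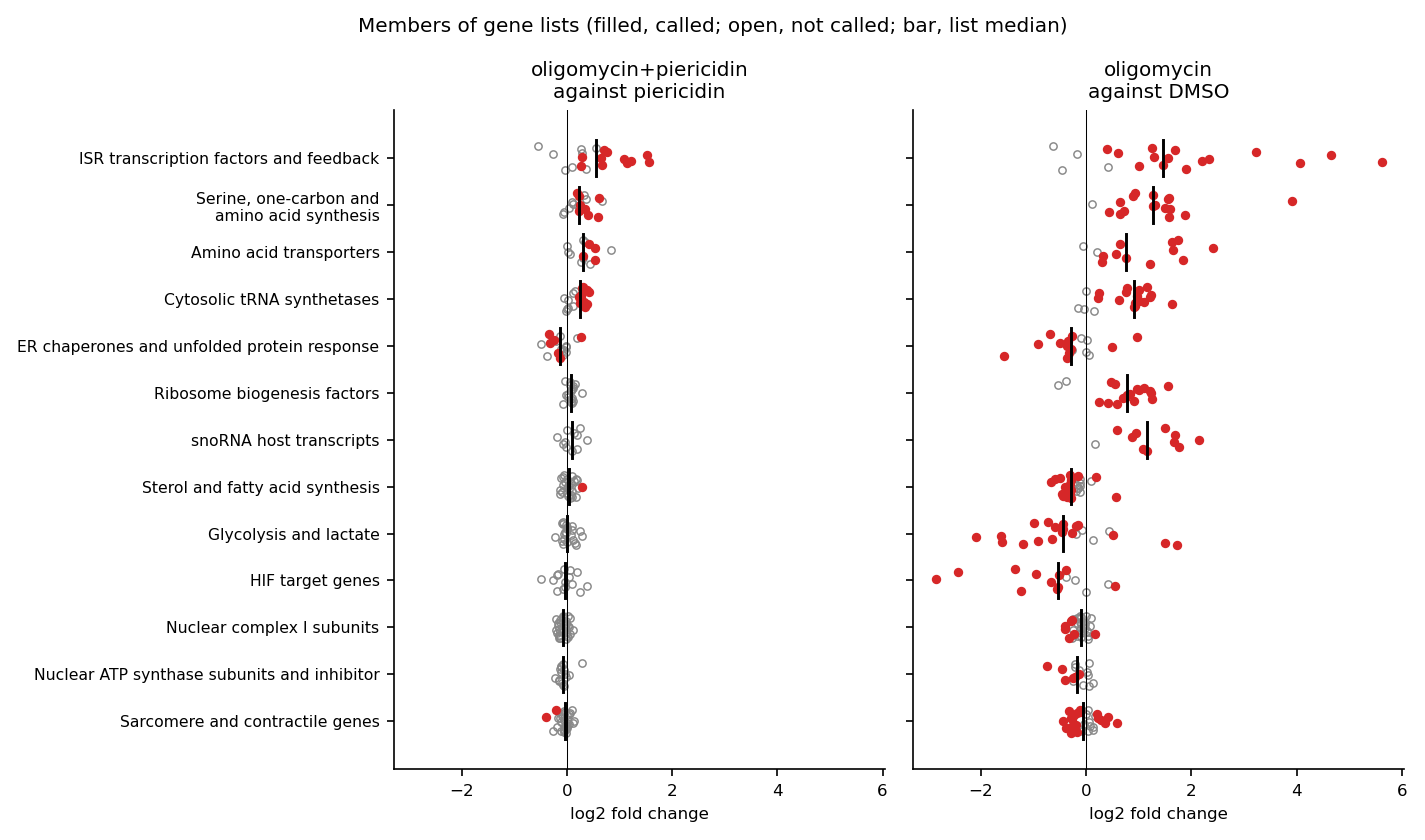
Log2 fold change (x axis) of each tested member of 13 gene lists (rows) for oligomycin+piericidin against piericidin (left) and oligomycin against DMSO (right); filled points are genes called in edgeR, open points are not, and bars are list medians. On the left the medians of the 4 upper lists lie between 0.23 and 0.56, with ISR genes from -0.55 to 1.55, while the glycolysis and HIF lists have 0 calls and medians of -0.00397 and -0.0426, with members from -0.23 to 0.29 and from -0.50 to 0.37.

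Of 17 tested chaperone and unfolded protein response genes of the endoplasmic reticulum (ER), 5 were lower, 1 was higher and 11 were not called. Hspa5 (chr2:34771970-34777547, plus strand), the ER chaperone BiP, was at 682, 699 and 733 CPM with piericidin and 594, 600 and 575 CPM with both inhibitors, with no overlap (0.836-fold, log2 fold change -0.26, SE 0.038, adjusted p = 0.000222, edgeR). Manf was at 66.4, 67.4 and 68.3 CPM and then 52.5, 52.9 and 53.5 CPM (0.785-fold, adjusted p = 0.00667, edgeR). Creld2 was lower at 0.799-fold, Hsp90b1 (GRP94) at 0.883-fold and Calr (calreticulin) at 0.905-fold, whereas Herpud1, an ER-associated degradation factor, was higher at 1.20-fold (adjusted p = 0.00285, edgeR). DESeq2 called 6 of the list lower and 1 higher, the median log2 fold change was -0.14, and 9 had an unadjusted p under 0.05. Leaving out 1 sample lowered the 5 to between 2 and 3. Among 12 heat shock genes 0 were called in edgeR (2 at an unadjusted p under 0.05, 0 by DESeq2).

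Among the 65 lower genes were secreted and signaling proteins. Asb2 (chr12:103321142-103356001, minus strand), a ubiquitin ligase subunit that targets filamins in muscle, was at 50.8, 42.6 and 46.4 CPM with piericidin and 24.3, 32 and 29.0 CPM with both inhibitors (0.612-fold, log2 fold change -0.71, SE 0.116, adjusted p = 0.000808, edgeR). With DMSO it was at 15.2 CPM, below both groups. Fst (chr13:114452290-114458951, minus strand), follistatin, which binds activins and myostatin, was at 79.4, 88.3 and 82.5 CPM and then 57.1, 49.8 and 46.6 CPM (0.614-fold, adjusted p = 0.00986, edgeR). Inhba, which encodes the activin A subunit that follistatin binds, was lower too, at 0.707-fold (31.0 ± 1.69 and 21.9 ± 1.81 CPM, SD, n = 3 each, adjusted p = 0.000423, edgeR). These were the 2 of 11 TGF-beta ligands, BMPs and ID proteins called, with 0 higher, and 1 was called without piericidin replicate 2 or oligomycin+piericidin replicate 2 or 3. Tfrc (chr16:32608920-32632794, plus strand), the transferrin receptor for iron uptake, was at 158, 166 and 161 CPM with piericidin and 113, 111 and 117 CPM with both (0.705-fold, log2 fold change -0.50, SE 0.0583, adjusted p = 5.84e-06, edgeR). Scml4, a Polycomb-related gene, was lower at 0.628-fold, the soluble scavenger receptor Ssc5d at 0.645-fold, the pentraxin Nptx1 at 0.672-fold, the receptor Notch1 at 0.676-fold, the Ras GTPase activator Rasa1 at 0.69-fold and Tmem246 at 0.697-fold. Nptx1, Rasa1 and Tmem246 each lost the call whichever of the 6 samples was left out. Their means with DMSO, piericidin and both were 22.2, 34.4 and 23 CPM for Nptx1, 18.5, 17.1 and 11.7 for Rasa1, and 11.3, 14.6 and 10.2 for Tmem246. Col6a3 (0.709-fold) was the 1 of 15 collagen and matrix genes called lower (2 by DESeq2, 5 with no count filter, 0 when any of the 6 samples but oligomycin+piericidin replicate 2 was left out; 6 at an unadjusted p under 0.05 and all 15 below 0), and Gamt, which makes creatine, the 1 of 7 creatine genes (0.828-fold; DESeq2 2; 0 without piericidin replicate 1 or 2 or oligomycin+piericidin replicate 1 or 3).

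Several abundant actin and contractile genes were lower by small amounts. Myl9, a regulatory light chain of smooth muscle and non-muscle myosin, was at 66.8, 76.0 and 77.2 CPM with piericidin and 51.7, 51.2 and 49.8 CPM with both inhibitors (0.692-fold, adjusted p = 0.00248, edgeR). Its mean was 50.8 CPM with DMSO, 73.3 with piericidin and 50.9 with both, so the fall returned it to the DMSO level. Of 30 sarcomere and contractile genes 2 fell and 0 rose, with a median log2 fold change of -0.04 and 10 at an unadjusted p under 0.05 (1 fell without piericidin replicate 2 or oligomycin+piericidin replicate 2). These were Myh7, slow myosin heavy chain, at 246, 274 and 256 CPM and then 196, 179 and 212 CPM (0.756-fold, adjusted p = 0.0152, edgeR), and Actc1, cardiac actin (0.869-fold, adjusted p = 0.00138, edgeR). Acta1, skeletal actin, by contrast was at 8570, 8430 and 8480 CPM and 8610, 8380 and 8480 CPM, a log2 fold change of 0.00 (SE 0.022). For Myh7 and Actc1 the DMSO means, 151 and 979 CPM, were below both of these groups. The following genes are outside the lists and were picked after their values were seen. Actb (chr5:142903115-142906754, minus strand), beta-actin, was at 3080, 3000 and 3020 CPM with piericidin and 2360, 2430 and 2470 CPM with both (0.799-fold, log2 fold change -0.32, SE 0.0192, adjusted p = 6.65e-11, edgeR). Tagln (transgelin) was at 191, 201 and 205 CPM and then 148, 152 and 150 CPM (0.754-fold, adjusted p = 1.38e-06, edgeR), and Cnn2 (calponin 2) at 267, 267 and 278 CPM and then 214, 213 and 211 CPM (0.785-fold, adjusted p = 6.98e-06, edgeR). Every sample with both inhibitors was below every piericidin sample in all 3. Acta2 (0.805-fold), Actg1 (0.893-fold), Tpm4 (0.821-fold), Flna (0.843-fold), Cald1 (0.851-fold), Actn1 (0.726-fold), Fhl1 (0.83-fold) and Myh6 (0.708-fold) were called lower as well, as were the matrix and matricellular genes Thbs1 (0.817-fold), Cyr61 (0.801-fold), Timp3 (0.779-fold) and Tnc (0.802-fold). Actins, and Myh6 with Myh7, are near-identical in parts of their sequence, so the estimated counts may divide reads between them.

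**Figure D4:**
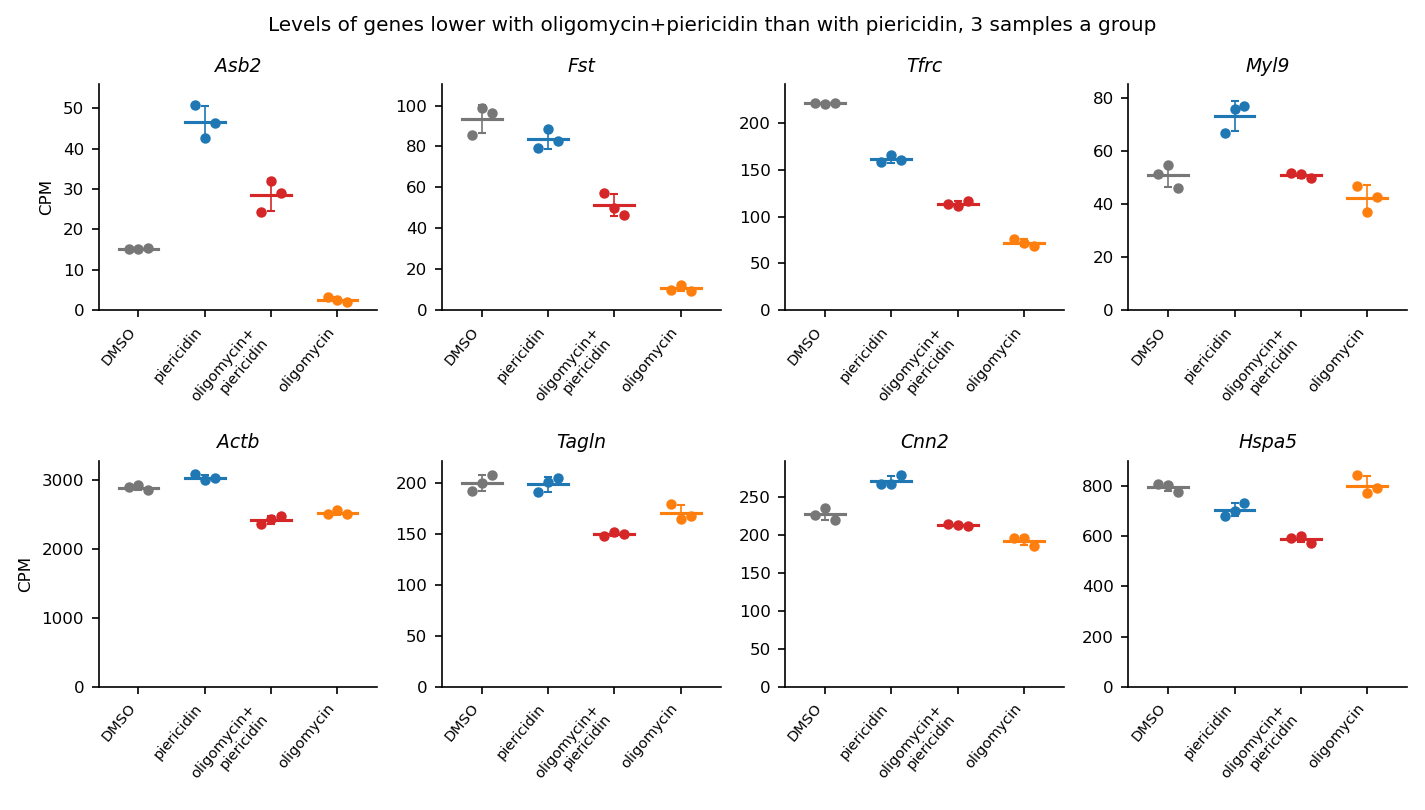
CPM of 8 genes called lower, in each of the 3 samples (points) of the DMSO, piericidin, oligomycin+piericidin and oligomycin groups; lines are means and bars are SD, and each axis starts at 0. The oligomycin+piericidin samples lie below the piericidin samples in each panel, while the oligomycin samples are far lower still for Asb2 and Fst, at means of 2.58 and 10.6 CPM, and higher for Hspa5, at 802 CPM.

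The CArG box, the motif of serum response factor, which drives actin and smooth muscle genes, was searched in the same windows after the lower genes were known. It was in 8 of the 48 lower genes with a RefSeq start (16.7%) and 0 of the 70 higher genes, beside 1.45% of 9224 tested genes and 1.62% of all 27025 genes. The 8 were Actc1, Actg1, Asb2, Cnn2, Fbxl22, Fhl1, Igf2 and Myl9, and none of them held either of the other words. Shown, as before from base -250 to -21 with the match in capitals, are Cnn2 (chr10:79988350-79988579, plus strand, match from base -56) and Asb2 (chr12:103356022-103356251, minus strand, match from base -64), the genes with the lowest adjusted p and the largest fall among the 8.
Cnn2: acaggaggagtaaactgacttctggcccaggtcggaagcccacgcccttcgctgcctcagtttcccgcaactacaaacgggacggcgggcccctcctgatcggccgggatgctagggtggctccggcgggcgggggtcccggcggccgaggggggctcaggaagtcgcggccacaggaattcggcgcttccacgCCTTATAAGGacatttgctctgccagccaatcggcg
Asb2: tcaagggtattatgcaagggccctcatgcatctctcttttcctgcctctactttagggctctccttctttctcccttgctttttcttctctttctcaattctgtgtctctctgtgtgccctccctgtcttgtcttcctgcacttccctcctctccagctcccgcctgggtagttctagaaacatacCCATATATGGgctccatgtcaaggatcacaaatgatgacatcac

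Few genes of energy metabolism were called when oligomycin was added, beside 1.19% of all genes tested. Counts of 0 in lists of this size are near that share and are not a result about these lists. Of 22 glycolysis and lactate genes 0 were called in edgeR when oligomycin was added (2 at an unadjusted p under 0.05, 0 by DESeq2), with log2 fold changes from -0.23 to 0.29, whereas piericidin against DMSO lowered 15 and raised 2 of them (4.84% and 4.15% of all genes). The piericidin samples serve in both of these contrasts. Oligomycin against DMSO lowered 15 and raised 3 of the 22 (16.4% and 16.9% of all genes), and the interaction was called for 15 higher and 3 lower. Ldha, lactate dehydrogenase A, was at 681, 748 and 764 CPM with piericidin and 660, 700 and 688 CPM with both inhibitors, beside 1180 CPM with DMSO. Of 15 HIF target genes 0 were called in edgeR (5 at an unadjusted p under 0.05, 2 higher by DESeq2), beside 11 lower with piericidin against DMSO, and 10 lower and 1 higher with oligomycin against DMSO. Among 25 pyruvate dehydrogenase and TCA cycle genes 0 were called (4 unadjusted, 0 by DESeq2), among 36 nuclear complex I subunits 0 (1 unadjusted, 0 by DESeq2), and among 16 ATP synthase genes, which encode the target of oligomycin, 0 (5 unadjusted, 0 by DESeq2). Atp5b, the catalytic beta subunit, was at 1350, 1390 and 1400 CPM and 1420, 1420 and 1410 CPM. Of the 13 protein genes of mitochondrial DNA, 1 was lower: mt-Co2, a subunit of cytochrome c oxidase, at 768, 757 and 714 CPM and then 687, 669 and 651 CPM (0.896-fold, adjusted p = 0.0313, edgeR). In this list 4 had an unadjusted p under 0.05 and DESeq2 called 2 lower; without piericidin replicate 3 edgeR called 2 lower, and without any other of the 6 samples 0. Txnip, of the MondoA glucose sensing list, was at 14.3, 15.2 and 14.6 CPM with piericidin and 19.7, 19.0 and 17.9 CPM with both, which was not called (log2 fold change 0.36, SE 0.148, adjusted p = 0.353, edgeR). Genes with 0 calls in edgeR also included 18 immediate early genes (6 unadjusted, 0 by DESeq2), 11 snoRNA host transcripts (2 unadjusted, 0 by DESeq2) and 19 ribosome biogenesis factors (2 unadjusted, 0 by DESeq2). The same count of 0 in edgeR was found for 15 fatty acid oxidation genes (3 unadjusted, 1 lower by DESeq2), 12 regulators of mitochondrial biogenesis (3 unadjusted), 8 NADH shuttle genes (1 unadjusted), 14 muscle calcium handling genes (1 unadjusted) and 14 core clock genes (3 unadjusted), with 0 by DESeq2 in each but the first. It was also found for 9 cytokines and chemokines (4 unadjusted), 11 atrophy ligase and FOXO genes (0 unadjusted) and 10 MAP kinase phosphatases and Sproutys (0 unadjusted), again with 0 by DESeq2.

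Set beside the addition of oligomycin to cells without piericidin, the changes were fewer and smaller. Oligomycin against DMSO called 4164 of the 12491 genes (33.3%), 2117 higher (16.9%) and 2047 lower (16.4%). The 2 contrasts share no samples. Of the 84 genes higher with piericidin present, 78 (92.9%) were also higher without it, which is 3.68% of the 2117, and of the 65 lower genes 43 (66.2%) were also lower, 2.1% of the 2047. These genes were chosen by their calls, so their sizes are a description: the median log2 fold change of the 78 was 0.38 with piericidin present and 1.22 without it, and 76 of the 78 had the smaller value with piericidin present. For the 43 shared lower genes the medians were -0.35 and -0.51, and 30 were closer to 0 with piericidin present. Across all genes, which are not independent replicates, the log2 fold changes of the 2 contrasts had a Pearson r of 0.369 and a Spearman rho of 0.355, with an SD of 0.307 and 0.596. The first principal component of the 12 samples (32.7% of the variance of log2 CPM) placed DMSO at -23.2 to -22.5, piericidin at -15.7 to -14.1, oligomycin+piericidin at -3.15 to 2.14 and oligomycin at 31.8 to 41.9.

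**Figure D5:**
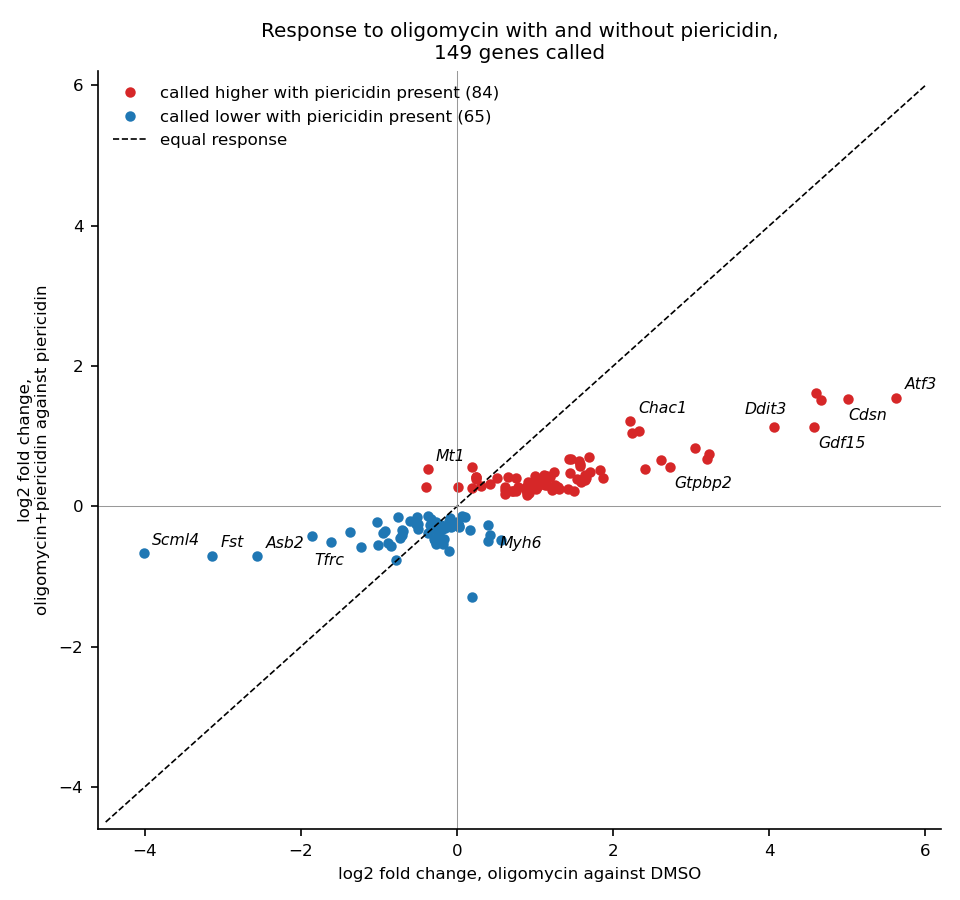
Log2 fold change for oligomycin against DMSO (x axis) and for oligomycin+piericidin against piericidin (y axis) of the 149 genes called in the latter, 84 higher in red and 65 lower in blue; the dashed line marks equal responses. The higher genes lie mostly on the right below the dashed line, Atf3 at 5.62 and 1.55, and a few genes such as Mt1 and Myh6 have opposite signs.

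The difference between these responses was tested for each gene as an interaction. It was called for 1820 genes (14.6%), 725 in which oligomycin raised the level more, or lowered it less, with piericidin present (5.8%) and 1095 of the opposite kind (8.77%), with 3367 at an unadjusted p under 0.05 (27%) and 710 and 1052 by DESeq2. For Atf3 the oligomycin samples were at 185, 176 and 183 CPM without piericidin, and the log2 interaction was -4.08 (SE 0.242, adjusted p = 8.64e-12, edgeR). For Ddit3 they were at 318, 318 and 314 CPM, with an interaction of -2.92 (SE 0.114, adjusted p = 1.07e-14, edgeR). Of the 19 members of the ISR list 13 had a called interaction, each of them negative, and 15 were raised by oligomycin alone. The same was measured for 15 of 17 serine and amino acid synthesis genes, 7 of 13 transporters, 15 of 20 tRNA synthetases, 9 of 11 snoRNA host transcripts and 15 of 19 ribosome biogenesis factors. The called interactions were mostly positive in the glycolysis and lactate list above, in the HIF target list (9 higher and 0 lower of 15) and in the sterol and fatty acid synthesis list (14 higher and 1 lower of 27). For Chac1 the rise was 1.21 with piericidin present and 2.21 without it, with an interaction of -1.0 (adjusted p = 5.58e-06, edgeR), and for Vldlr 0.67 and 1.45, with an interaction of -0.79 (adjusted p = 7.91e-06, edgeR). For Slc38a2 the rises were 0.29 and 0.31 with and without piericidin and the interaction was not called (-0.02, adjusted p = 0.898, edgeR).

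Some of the 149 genes moved otherwise. Mt1 and Nsdhl were higher when oligomycin was added to piericidin and lower when it was added to DMSO: Mt1 was at 173 ± 13.2 CPM with DMSO, 125 ± 13.4 with piericidin, 133 ± 21.2 with oligomycin and 180 ± 2.69 with both (SD, n = 3 each), and its interaction was 0.90 (adjusted p = 0.000958, edgeR). Another 5, Myh6, Myh7, Lmod2, Fhl1 and mt-Co2, were lower with piericidin present and higher without it. In these 5 each inhibitor alone had a mean above DMSO, as for Myh7 at 151 CPM with DMSO, 259 with piericidin, 203 with oligomycin and 196 with both. Hspa5 was lower in the presence of piericidin and at a log2 fold change of 0.01 without it, with an interaction of -0.27 (adjusted p = 0.000959, edgeR). For Actb the falls were -0.32 and -0.19, with an interaction of -0.13 (adjusted p = 0.00137, edgeR), so the fall was larger with piericidin present. For Tpm4 (interaction 0.02, adjusted p = 0.842) and Cyr61 (interaction 0.00, adjusted p = 0.986) a difference between the responses was not detected in edgeR. Acp6, Gdpd1, Slc41a1 and Tmub2, picked after their values were seen, were the 4 of the 84 higher genes with no call in oligomycin against DMSO, and the interaction was not called for any of these 4 (adjusted p from 0.058 to 0.463, edgeR).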

How the data were processed

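RNA of the 96 samples was made into libraries by a Smart-seq2 protocol that captures polyadenylated RNA. The authors estimated transcript abundance with kallisto (0.44 in the submitters' processing notes) against Ensembl release 93 (GRCm38.p6) with the study's transgenes, and deposited estimated counts per gene, summed over 2 flow cells. kallisto divides reads between near-identical transcripts, which makes values of paralogs uncertain, and the counts carry no strand information used here.

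The estimated counts went into edgeR as deposited and were converted to integers for DESeq2. Of 54146 mouse genes, 12491 reached 16 counts throughout any 1 of the 9 untransduced myotube groups (27 samples) and were fitted together in edgeR 4.0.16 (R 4.3.3; TMM scaling, quasi-likelihood F test, Benjamini-Hochberg adjustment, threshold 0.05). Fitting all 9 groups shares one estimate of the spread. The SE was taken from the F statistic as the size of the change over the root of F. The contrasts were oligomycin+piericidin against piericidin, oligomycin against DMSO, piericidin against DMSO and their interaction. DESeq2 1.42.0 was an alternative, and 4117 genes had no adjusted p in it. The fits were tested on simulated counts.

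Named genes are the 12 called genes a direction with the largest change and a mean of at least 50 counts, groups that do not overlap and no predicted name, 5 genes a direction by the same rule for the interaction (overlap allowed), 9 ISR and glycolysis markers in every case, and up to 3 called members a direction of each list; genes named beyond these, among them the actin genes, were picked after their values were seen. For the interaction the mean count was taken over the 12 samples of the DMSO, piericidin, oligomycin and oligomycin+piericidin groups. The samples, the 42 gene lists and the motifs were chosen with earlier results of these data known. Total counts were 6458295 to 15366745 over the 96 samples, and the 4 transgenes had 0 counts in untransduced myotubes. Replicate numbers were not used to pair samples. Promoters come from RefSeq (GRCm38.p6) and gene positions from GENCODE vM21 (GRCm38). Comparisons of other cells, inhibitors and transgenes were not analysed here. One gene that the naming rule takes is not reported here.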

Additional observations from a re-analysis of the deposited data

Results flagged for a closer look

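The response to oligomycin differed with and without piericidin in 1820 genes, tested as an interaction in edgeR. The 5 genes a direction with the largest such differences follow on the log2 scale, among those with a mean of at least 50 counts over the 12 samples. Car6 and Rad54b reached that mean only through the oligomycin group. Over the 6 samples with piericidin they averaged 9.33 and 27.7 counts. The interaction was -5.59 (SE 0.72, adjusted p = 3.8e-06) for Car6, a secreted carbonic anhydrase, at means of 0.163 CPM with DMSO, 0.479 with piericidin, 20.9 with oligomycin and 1.29 with both inhibitors. The DMSO samples were at 0.205, 0 and 0.283 CPM, so the size of this value rests on very few counts. The interaction was -4.08 for Atf3 and -3.44 (SE 0.278, adjusted p = 2.06e-09) for Gdf15. For Cdsn it was -3.48 (SE 0.244, adjusted p = 1.5e-10), at 2.81, 4.54, 91.5 and 13.3 CPM in the same order. Rad54b, a DNA repair helicase, had -3.38 (SE 0.597, adjusted p = 0.00023), at 1.63, 2.13, 25.7 and 3.28 CPM.

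In the other direction, oligomycin lowered the gene far more without piericidin. Smim5 had an interaction of 3.40 (SE 0.215, adjusted p = 2.65e-11), at 25.6 CPM with DMSO, 1.83 with oligomycin and, in the single samples, 20.4, 20.7 and 20.9 with piericidin and 14.3, 16.7 and 15.8 with both, a difference that edgeR did not call (adjusted p = 0.171). Scml4 had 3.34 (adjusted p = 6.8e-12), at 54.7, 16.2, 3.38 and 10.1 CPM with DMSO, piericidin, oligomycin and both. Fst had 2.44 (SE 0.221, adjusted p = 1.32e-08), at 93.6, 83.4, 10.6 and 51.2 CPM. Fam167a had 2.36 (SE 0.169, adjusted p = 2.02e-10), at 86.8, 23.3, 18 and 25 CPM, and E2f2, a factor of the cell cycle, had 2.34 (SE 0.135, adjusted p = 6.8e-12), at 86.1, 25.1, 17.2 and 25.5 CPM. In Scml4, Fam167a and E2f2 piericidin alone was already far below DMSO, by 1.76, 1.88 and 1.77 on the log2 scale.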

How the results depend on the processing

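The 149 calls of oligomycin+piericidin against piericidin became 380 with no count filter (44285 genes tested, 110 calls shared), and 85 to 111 without 1 of the 6 samples, 89 of them without piericidin replicate 1, the shallowest library, and 85 without oligomycin+piericidin replicate 2. Other settings gave 113 (only the 2 groups fitted) to 191 (DESeq2). The 10 genes at least 2-fold changed became 119 with no count filter, 19 with only the 2 groups fitted and 6 to 10 without 1 sample, 6 of them without piericidin replicate 1. Why these counts moved was not tested, beyond the genes or samples each setting adds or removes. The 1820 interaction calls stayed between 1598 and 1833. Replicate numbers did not pair the samples (correlations of the deviations of same-numbered samples -0.0578, 0.1 and 0.0341), which share only a number; with the replicate number as a block 142, 9 and 1754 genes were called. With the ribosomal RNA gene left out, an alternative chosen after seeing the data, 156 were called, 94 higher and 62 lower. Of 52 named genes called, all 52 kept their sign and 30 kept their call in every alternative and without each sample; 14 lost it with only the 2 groups fitted, 8 with no count filter and 2 under the block (Rasa1 and Tmem246). Depth limits genes of a few CPM or less, such as Akr1b7, Slc7a11 and Gm4617, and Car6 and Rad54b outside the oligomycin group.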
